A study of Mus musculus with 4 samples.

Results

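The homeobox genes of the HoxA, HoxB and HoxC clusters were examined in forelimbs of mouse embryos cultured with or without cyclopamine, a steroidal alkaloid from plants that blocks Smoothened and so shuts off Hedgehog signalling inside cells. Members were the rows of the deposited expression table named Hoxa, Hoxb or Hoxc with a number, and antisense and host transcripts were left out. These were 27 of the 17568 genes listed, with 11 in HoxA, 9 in HoxB and 7 in HoxC. Hoxb13, Hoxc11 and Hoxc12 had no row under these names, so they were not analysed here. The groups were 2 libraries from wild-type Swiss Webster forelimbs in medium with cyclopamine and 2 from forelimbs of the same strain and genotype in control medium. All embryos were at E10.25, with 31 to 34 somites, and RNA was taken from the limb buds when the culture ended. The submitters describe biological replicates, but the dose, vehicle and duration of culture and the embryos behind each library are not stated. P-values therefore measure only the spread between these libraries, which may be technical.

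Hox genes encode transcription factors that bind DNA through a homeodomain, and they lie in clusters whose order along the chromosome matches the order of their activity along the head-to-tail axis. Genes with the same number in different clusters are paralogs, and low numbers belong to the anterior end. In the limb, the high-numbered genes of HoxA and HoxD pattern the upper arm, forearm and hand in turn, while the HoxB and HoxC genes are better known from the trunk, the neural tube and the flank mesoderm from which the limb bud arises. Sonic hedgehog from the posterior limb margin is known to sustain the late distal activity of HoxD and of Hoxa13.

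The libraries held between 9779589 and 13555492 gene-assigned reads, and the members took between 8059 and 10934 of them. Values are normalized counts per 1000000 (CPM), and 3 reads, the floor of detection, corresponded to between 0.22 and 0.31 CPM. The treatment was visible in Gli1, a transcriptional target of the Hedgehog pathway, at 8.05 and 4.70 CPM in cyclopamine against 56.2 and 56.7 CPM in control. Limb mesenchyme markers were present in every library, with Prrx1 between 560 and 783 CPM and Tbx5 between 193 and 226 CPM. Of the 6 on this list, 3 had positive and 3 negative log2 fold changes. None passed an adjusted p of 0.05 in limma, where 0.28% of all genes did. Fgf10 had 46.0 and 39.7 CPM in cyclopamine against 68.0 and 62.2 CPM in control (-0.60, SE 0.16). Hand2 had 69.3 and 60.0 CPM in cyclopamine against 90.1 and 96.0 CPM in control (-0.53, SE 0.15). The neural tube and neuron list was lower in cyclopamine: 14 of its 15 genes were listed, and all 9 tested had negative log2 fold changes. Of these 9, 7 fell at an adjusted p under 0.05 in limma, where 0.236% of all genes did. In edgeR and DESeq2, 5 and 6 of the 9 passed, where 0.295% and 0.383% of all genes did. Of the listed genes, 4 had no read in either cyclopamine library. The summed level was 9.31 and 10.9 CPM in cyclopamine against 48.1 and 84.2 CPM in control. Hox genes are also active in neural tube, and the part of these cells in the values below was not tested. In bulk tissue, fewer cells of a type and less RNA per cell cannot be told apart.

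None of the HoxA, HoxB and HoxC genes changed past the threshold. Limma on log2(CPM + 0.5) called 0 of the 27 at an adjusted p under 0.05, against 38 of the 13568 genes tested (0.28%), of which 6 rose and 32 (0.236%) fell. All 27 reached the mean of 1 CPM required for testing. At an unadjusted p under 0.05 there were 4 members, among them Hoxa13, Hoxb9 and Hoxa11, where 5.82% of all genes reached that level. The quasi-likelihood test of edgeR and DESeq2, both on reads recovered from the deposited values, called 0 members too (against 0.295% and 0.383% of all genes), with 4 and 2 at an unadjusted p under 0.05. The authors' deposited table marked 0 of the 27 at a false discovery rate under 0.05, where it marked 0.455% of all genes, and its smallest value among them was 0.238, for Hoxa13. Log2 fold changes of cyclopamine over control were positive for 13 members and negative for 14, with a median of -0.04 beside 0.0045 over all genes tested. The 95% interval of the difference lay within 1 of 0 on the log2 scale for 19 members, reached below -1 for 4 and above 1 for 4, so a halving or doubling was outside the interval for most members but not for all.

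**Figure D1:**
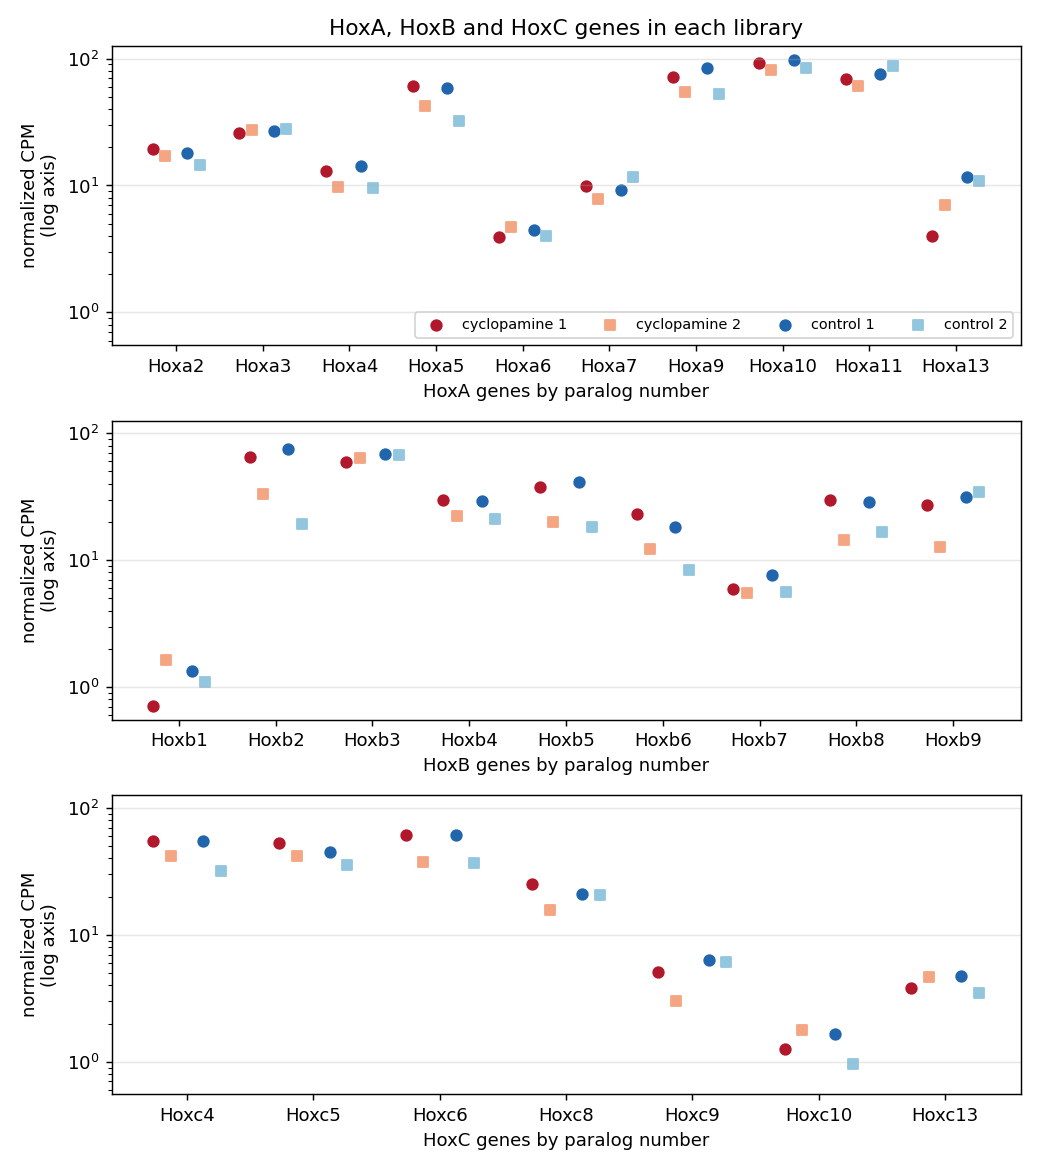
Normalized CPM of HoxA, HoxB and HoxC genes in each library, on a log axis, ordered by paralog number; each point is a library. The 4 points of most genes interleave, while both cyclopamine points of Hoxa13, at 4.02 and 6.97 CPM, lie under both control points, at 11.8 and 10.9 CPM.

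The member that lay lowest relative to control was at the distal end of HoxA. Hoxa13, needed for the hand and foot, had 4.02 and 6.97 CPM in cyclopamine against 11.8 and 10.9 CPM in control, on 51 and 86 reads against 114 and 149. Both cyclopamine libraries lay under both controls, and the gap between the cyclopamine libraries was wider than that between the controls. Its mean was 5.50 ± 2.08 CPM in cyclopamine and 11.4 ± 0.577 CPM in control (SD, n = 2 each), a log2 fold change of -1.03 (SE 0.28, 95% interval -1.63 to -0.43), and it did not pass over all genes (limma, adjusted p = 0.289). Without cyclopamine 2 it passed, at -1.39 (limma, adjusted p = 0.0287, where 0.621% of all genes passed), and without cyclopamine 1 it stood at -0.67.

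Hoxa11, which patterns the forearm, had 68.5 and 61.3 CPM in cyclopamine against 76.1 and 87.2 CPM in control. The groups did not overlap, and its mean was 64.9 ± 5.11 CPM in cyclopamine and 81.7 ± 7.82 CPM in control (SD, n = 2 each). The log2 fold change was -0.33 with an SE of 0.15 (limma, adjusted p = 0.856). Exons of Hoxa11 share 800 bases with the antisense transcript on the opposite strand, 35.0% of its exon length, and the use of strand in counting is not stated. That antisense transcript, listed as Hoxa11as, had 37.9 and 47.8 CPM in cyclopamine against 69.3 and 56.3 CPM in control, a log2 fold change of -0.55 (SE 0.17, adjusted p = 0.447 in limma).

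Hoxa10 and Hoxa9, at the border of the distal and central parts of the cluster, did not separate the groups. Hoxa10, known from the upper arm and thigh, had 91.7 and 81.2 CPM in cyclopamine against 98.3 and 83.6 CPM in control, a log2 fold change of -0.07 (SE 0.15). Hoxa9 had 71.3 and 54.2 CPM in cyclopamine against 84.3 and 52.7 CPM in control, and its sign depended on the libraries included (-0.44 to 0.24 with each library left out in turn). Both genes were highest in control 1, and control 2 lay between or below the cyclopamine libraries.

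The proximal promoters of these genes are shown because Hoxa13 and Hoxa11 were the HoxA genes with both cyclopamine libraries under both controls, and Hoxb8 is given as a HoxB gene whose level followed the library rather than the group. Each line is the 250 bases before the annotated RefSeq start in GRCm38.p6, 5′ to 3′ on the strand of the gene. Hoxa13 is chr6:52260881-52261130 (minus strand), Hoxa11 chr6:52245811-52246060 (minus strand) and Hoxb8 chr11:96281655-96281904 (plus strand). Capitals mark TATAAA, the TATA box core, read on either strand.
Hoxa13: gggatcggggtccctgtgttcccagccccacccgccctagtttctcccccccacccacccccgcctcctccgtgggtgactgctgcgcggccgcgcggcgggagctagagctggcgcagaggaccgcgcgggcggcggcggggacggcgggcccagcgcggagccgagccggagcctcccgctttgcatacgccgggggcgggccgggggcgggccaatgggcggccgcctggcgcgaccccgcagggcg
Hoxa11: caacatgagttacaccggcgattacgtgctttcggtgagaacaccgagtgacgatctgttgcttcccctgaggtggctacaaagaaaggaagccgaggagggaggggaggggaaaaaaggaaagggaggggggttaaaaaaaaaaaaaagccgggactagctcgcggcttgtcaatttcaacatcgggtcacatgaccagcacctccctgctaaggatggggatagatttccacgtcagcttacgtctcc
Hoxb8: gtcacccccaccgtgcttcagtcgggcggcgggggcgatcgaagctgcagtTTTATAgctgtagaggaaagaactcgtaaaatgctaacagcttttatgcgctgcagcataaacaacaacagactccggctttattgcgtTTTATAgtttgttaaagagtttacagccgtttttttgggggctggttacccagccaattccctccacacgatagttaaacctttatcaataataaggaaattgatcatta
GC content was 80.0% in Hoxa13, 52.0% in Hoxa11 and 44.4% in Hoxb8, with 35, 13 and 12 CpG pairs. RefSeq promoters were matched for 13 of the 27 members, 14 promoters in all, with a median of 12.5 CpG pairs in these 250 bases beside 6 over all 32851 promoters. The letters of the GLI consensus, GACCACCCA on either strand, were in 0 of the 14 and in 0.225% of all promoters. TATAAA on either strand was in 2 of the 14, those of Hoxb8 and a promoter of Hoxa10, and in 12.4% of all; the motifs searched do not overlap.

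The HoxA genes from Hoxa2 to Hoxa7 differed little from control. Hoxa2, known from the hindbrain and neural crest, had 19.6 and 17.1 CPM in cyclopamine against 18.2 and 14.5 CPM in control, a log2 fold change of 0.17 (SE 0.21). Hoxa3 was the steadiest member, at 25.8 and 27.5 CPM in cyclopamine against 26.9 and 27.8 CPM in control, with a log2 fold change of -0.04 (SE 0.18). Hoxa5, which with its paralogs is known to restrict Shh to the posterior forelimb, had 61.1 and 42.1 CPM in cyclopamine against 58.5 and 32.3 CPM in control. Its log2 fold change of 0.22 (SE 0.24) ran from -0.21 without control 2 to 0.64 without control 1. Hoxa4, Hoxa6 and Hoxa7 had log2 fold changes of -0.06, 0.03 and -0.22, and their groups overlapped.

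Within HoxA, the fold changes tended to be lower at higher paralog numbers, though not in strict order: Hoxa5 lay above Hoxa2, and Hoxa9 and Hoxa10 above Hoxa7. The rank correlation (Spearman) between paralog number and log2 fold change was -0.82 over 10 of the 11 genes, Hoxa2 to Hoxa13. The genes share the same 4 libraries, so this is a description with no p-value. In the 4 single pairs of a cyclopamine and a control library it ran from -0.71 to -0.52, and with each library left out in turn from -0.76 to -0.59. For comparison, it was -0.88 over the 9 HoxD genes, -0.35 over the 9 HoxB genes and -0.25 over the 7 HoxC genes. In HoxB and HoxC the sign of this correlation differed between library pairs, with ranges of -0.67 to 0.25 and -0.79 to 0.43.

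**Figure D2:**
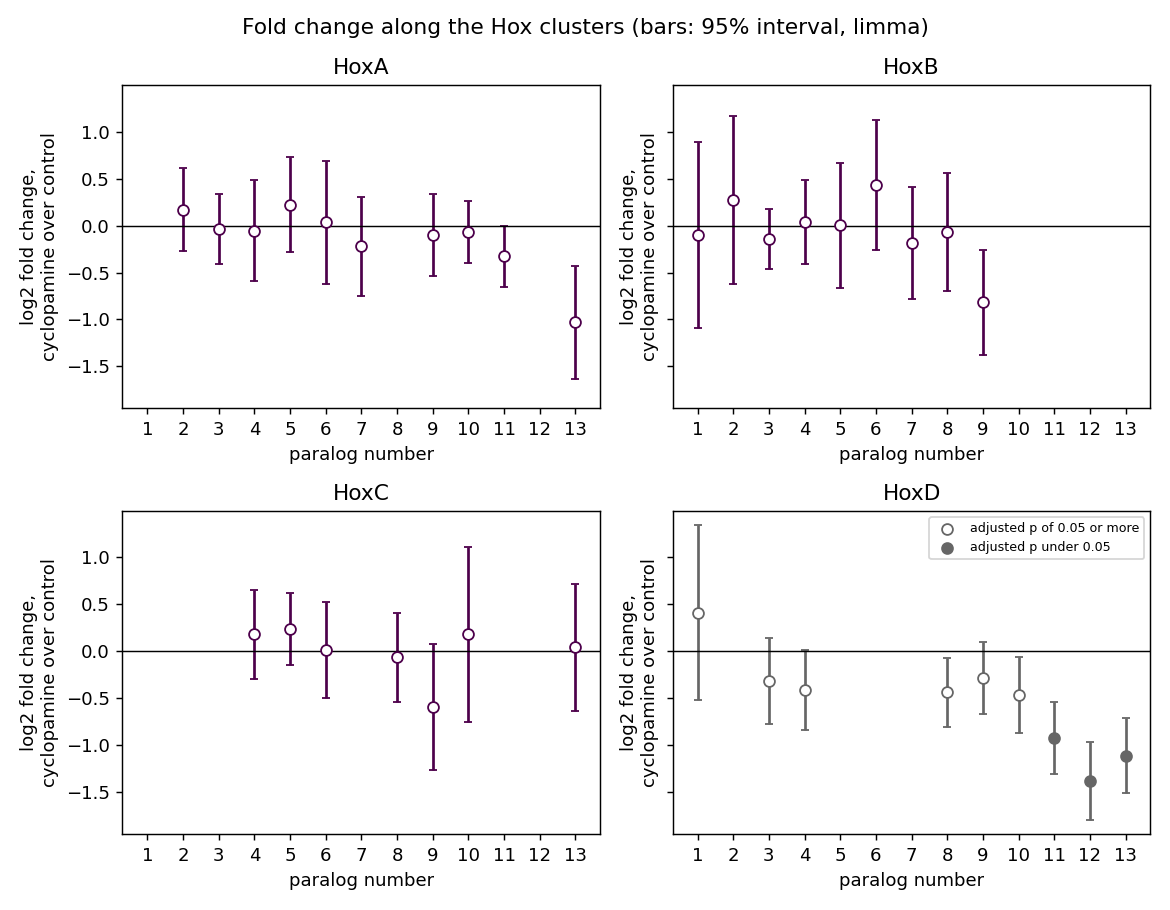
Log2 fold change of cyclopamine over control against paralog number, in a panel for each cluster, with HoxD in grey; bars are 95% intervals from limma, and filled points passed an adjusted p of 0.05. HoxA is shown from Hoxa2, at 0.17, to Hoxa13, at -1.03, with no filled point, and filled points are seen in HoxD at Hoxd11, Hoxd12 and Hoxd13.

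In HoxD, 3 of the 9 genes fell past the threshold, where 0.236% of all genes did: Hoxd11 and Hoxd13, paralogs of the distal HoxA members, and Hoxd12. Hoxd13 had 63.7 and 40.9 CPM in cyclopamine against 117 and 105 CPM in control, a log2 fold change of -1.11 (SE 0.19, adjusted p = 0.0189 in limma), beside the -1.03 of Hoxa13. Hoxd11 had a log2 fold change of -0.92 (SE 0.18, adjusted p = 0.0454 in limma), beside the -0.33 of Hoxa11. All 3 also passed in DESeq2 (adjusted p between 4.32e-06 and 0.00446), where 0.383% of all genes did. The authors' deposited table marked the same 3 (false discovery rate between 8.32e-07 and 0.00426), where it marked 0.455% of all genes. Hoxd11 did not pass without control 1 (adjusted p = 0.124), without cyclopamine 2 (adjusted p = 0.148), in edgeR (adjusted p = 0.0728), where 2 of the 9 passed, or with a mean of at least 5 CPM required (limma, adjusted p = 0.0503). None of the 3 passed in limma without a filter on low values (adjusted p between 0.21 and 0.407), where 2 genes passed in all, or without the intensity trend (adjusted p between 0.323 and 0.529). Hoxd9, at -0.28 (SE 0.18), lay between the values of its paralogs. The differences between the clusters were not tested. Hoxa13 rested on between 51 and 149 reads a library and Hoxd13 on between 505 and 1429, and the SE of the fold change was larger for Hoxa13.

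In HoxB, the member that lay lowest relative to control was Hoxb9, at the posterior end of the cluster as listed here. With its paralogs it is known to be needed for the posterior polarity of the forelimb bud, where they act upstream of Shh. Hoxb9 had 27.1 and 12.7 CPM in cyclopamine against 31.6 and 34.7 CPM in control, so that both cyclopamine libraries lay under both controls and cyclopamine 2 lay far under cyclopamine 1. The mean was 19.9 ± 10.19 CPM in cyclopamine and 33.2 ± 2.25 CPM in control (SD, n = 2 each), a log2 fold change of -0.81 (SE 0.26, 95% interval -1.37 to -0.26, adjusted p = 0.471 in limma). Cyclopamine 2 decided its size: without cyclopamine 1 it stood at -1.35 and passed (limma, adjusted p = 9.86e-05, where 0.898% of all genes passed), and without cyclopamine 2 it stood at -0.28.

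Most other HoxB genes differed more between libraries of a group than between groups. Hoxb2, a hindbrain gene, had the widest range of library values in HoxB, with 65.2 and 33.0 CPM in cyclopamine against 75.4 and 19.3 CPM in control, a 3.90-fold difference between the controls. Its log2 fold change of 0.27 (SE 0.42) was -0.69 without control 2 and passed at 1.24 without control 1 (limma, adjusted p = 0.0395, where 0.582% of all genes passed). Exons of Hoxb2 share 953 bases with the antisense gene Hoxb3os. Hoxb5 had 37.8 and 20.01 CPM in cyclopamine against 41.1 and 18.4 CPM in control. Its log2 fold change of 0.0011 was negative with median-of-ratios scaling, in edgeR and in DESeq2, and it ran from -0.57 to 0.57 with each library left out in turn. Hoxb6, a marker of flank mesoderm, had 23.1 and 12.3 CPM in cyclopamine against 18.3 and 8.38 CPM in control, a log2 fold change of 0.43 (SE 0.33, adjusted p = 0.9996 in limma) that ran from -0.11 without control 2 to 0.97 without control 1. Hoxb8 had 29.7 and 14.4 CPM in cyclopamine against 28.6 and 16.6 CPM in control. In all 4 of these genes the first library of each group was the higher, and the groups overlapped.

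Of the remaining HoxB genes, Hoxb3, Hoxb4 and Hoxb7 varied less between libraries. Hoxb3 had 58.9 and 64.3 CPM in cyclopamine against 68.3 and 67.5 CPM in control, and the groups did not overlap, although the log2 fold change was only -0.14 (SE 0.15). Of its exon bases, 52.9% overlap the antisense gene Hoxb3os. Hoxb4 and Hoxb7 had log2 fold changes of 0.04 and -0.19. Hoxb1, a hindbrain gene, rested on 9 and 20 reads in cyclopamine against 13 and 15 in control, its highest library stood 2.28-fold above its lowest, and its 95% interval of -1.09 to 0.89 excluded little.

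HoxC genes of the forelimb level, Hoxc4 to Hoxc6, were among the more abundant members and did not separate the groups. Hoxc6, long used as a marker of the forelimb level of the trunk, had 61.0 and 37.4 CPM in cyclopamine against 61.5 and 36.6 CPM in control, a log2 fold change of 0.0088 (SE 0.24). Hoxc4 had 54.8 and 41.5 CPM in cyclopamine against 55.1 and 32.0 CPM in control. Hoxc5 had 53.1 and 41.5 CPM in cyclopamine against 44.9 and 35.3 CPM in control, a log2 fold change of 0.24 (SE 0.18), and this kept its sign whichever library was left out (0.06 to 0.41). As in HoxB, the first library of each group was the higher for all 3 genes.

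In HoxC the levels were low from Hoxc9 toward the posterior end. Hoxc8, a gene of the brachial cord and trunk, had 25.1 and 15.8 CPM in cyclopamine against 20.9 and 20.8 CPM in control. Hoxc9 had 5.13 and 2.998 CPM in cyclopamine against 6.29 and 6.10 CPM in control, on 65 and 37 reads against 61 and 83. Its groups did not overlap, with a mean of 4.06 ± 1.51 CPM in cyclopamine and 6.20 ± 0.139 CPM in control (SD, n = 2 each), a log2 fold change of -0.59 (SE 0.31, adjusted p = 0.901 in limma) that ran from -0.94 without cyclopamine 1 to -0.25 without cyclopamine 2. Hoxc10 had 1.26 and 1.78 CPM in cyclopamine against 1.65 and 0.955 CPM in control. Hoxc13, known from hair and nail, had 3.79 and 4.62 CPM in cyclopamine against 4.75 and 3.45 CPM in control. Their log2 fold changes were 0.18 (SE 0.44) and 0.04 (SE 0.32), and the groups overlapped for both.

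Both cyclopamine libraries lay under both controls for 5 of the 27 members, where 15.8% of all genes tested did so. By paralog number they were Hoxa11, Hoxa13, Hoxb9 and Hoxc9 among the 8 genes of groups 9 to 13, and Hoxb3 among the 19 of groups 1 to 8. The genes share the same 4 libraries, and their place along the clusters was not tested. In HoxD the same held for 6 of the 9 genes, at low as well as high paralog numbers. The median log2 fold change was 0.04 for the 9 genes of groups 1 to 4, 0.0050 for the 10 of groups 5 to 8 and -0.21 for the 8 of groups 9 to 13. With each library left out in turn the last median ran from -0.35 to -0.17, while the other medians took both signs. By cluster, the medians were -0.06 for HoxA, -0.07 for HoxB and 0.04 for HoxC, and each of these also took both signs. Of the 27 genes, 18 had a fold change of either sign depending on which library was left out, and those that kept their sign included Hoxa2, Hoxa7, Hoxa11, Hoxa13, Hoxb3, Hoxb9, Hoxc5 and Hoxc9.

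The libraries differed among themselves in the same direction in both groups. Summed over the members, the level was 863 CPM in cyclopamine 1 and 653 CPM in cyclopamine 2, against 906 CPM in control 1 and 667 CPM in control 2. For 15 of the 27 members both libraries numbered 1 lay above both libraries numbered 2, as 22.2% of all genes tested did, and for 1 member, Hoxa3, the reverse held (21.4% of all genes). These were 8 of the 10 genes of groups 5 to 8, 5 of the 9 of groups 1 to 4 and 2 of the 8 of groups 9 to 13. The ratio of library 1 to library 2 was between 0.786 and 3.90 for members in control and between 0.438 and 2.13 in cyclopamine. The labels attach no litter, day or batch to these numbers.

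Summed levels of blood, neural crest and limb ectoderm markers, and of HoxD, were also higher in the first library of each group. The members of the 3 marker lists were mixed. The order of all 4 libraries in the Hox sum, shared by HoxA and HoxB, was not that of any of the 3 lists. HoxC, at 204 and 146 CPM in cyclopamine against 195 and 135 CPM in control, had the order of the blood list. So did groups 5 to 8, at 311 and 202 CPM against 295 and 190 CPM. Taken as medians of the values around each gene's mean, the members had the order of the neural crest sums. Blood markers summed to 1235 and 737 CPM in cyclopamine against 784 and 350.4 CPM in control, led by the embryonic globin genes Hba-x and Hbb-bh1, and all 6 were listed, none at 0. Of these 6, 3 were higher in cyclopamine 2 than in cyclopamine 1 and 2 were higher in control 2 than in control 1. Neural crest and Schwann cell markers, 6 of 6 listed, summed to 22.1 and 19.5 CPM in cyclopamine against 25.5 and 17.0 CPM in control, with 2 of the 6 higher in the library numbered 2 in each group. Somite and myoblast markers, 7 of 7 listed, summed to 49.6 and 39.1 CPM in cyclopamine against 41.7 and 46.3 CPM in control. Limb mesenchyme markers, led by Prrx1, summed to 1213 and 1367 CPM in cyclopamine against 1207 and 1219 CPM in control. The neural list had the opposite order in the controls, with 13 of its 14 listed genes higher in control 2 than in control 1. Endothelial markers, 5 of 5 listed, summed to 357 and 426 CPM in cyclopamine against 331 and 345 CPM in control, and limb ectoderm markers, 6 of 6 listed, to 140 and 112 CPM in cyclopamine against 158 and 141 CPM in control. Of the genes on these lists other than the neural one, limma called Fgf8 of the ectoderm, and the part of these cells in the Hox values was not tested.

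**Figure D3:**
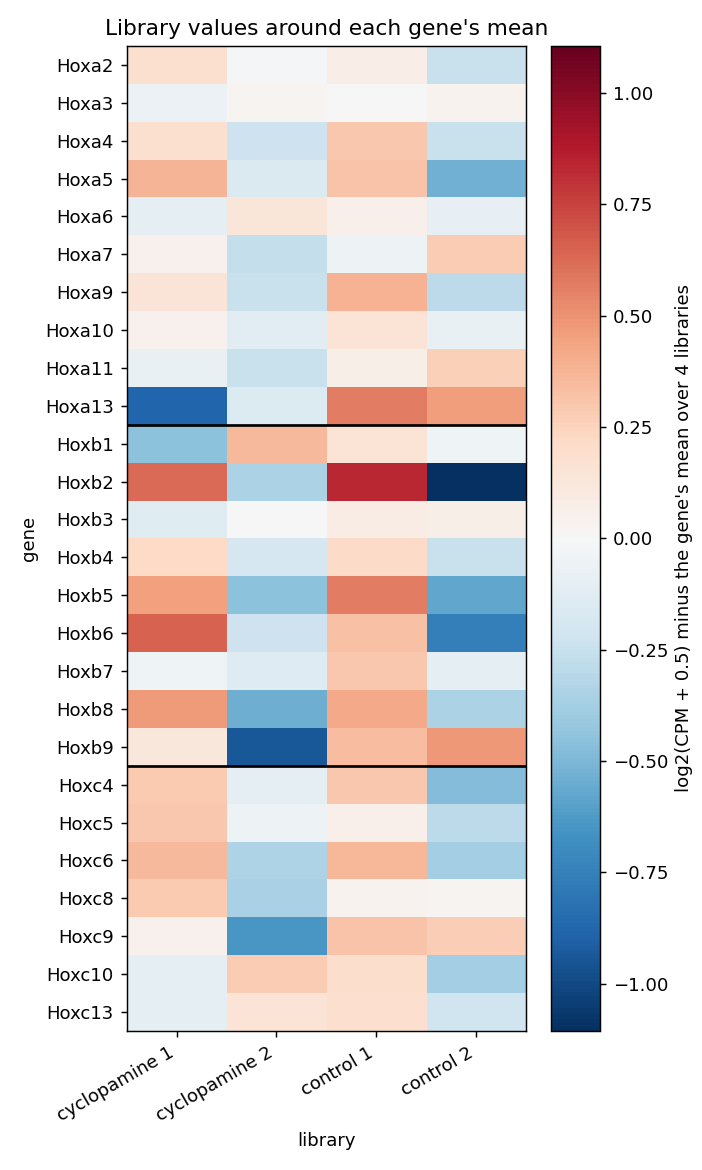
Log2(CPM + 0.5) of the members shown in each library, minus the mean of the gene over the 4 libraries; red is above the mean and blue below, and black lines separate the clusters. For Hoxa4, Hoxa5, Hoxb4 to Hoxb6, Hoxb8 and Hoxc4 to Hoxc6 cyclopamine 1 and control 1 are red and the libraries numbered 2 blue, while Hoxa13 and Hoxb9 are blue in both or in 1 of the cyclopamine libraries and red in both controls.

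Levels of different genes were compared as CPM per kilobase of annotated exon (GENCODE vM21, GRCm38). The annotation used for counting is not stated, so these exon lengths may not be those counted, and the order is uncertain to that extent. Hoxa11 was first of the 27, with a lowest, median and highest library of 26.8, 31.6 and 38.1 CPM per kilobase, followed by Hoxa10 (24.8, 26.8 and 30.1), Hoxa5 (17.2, 26.8 and 32.5), Hoxc6 (15.2, 20.4 and 25.5) and Hoxc4 (12.5, 18.8 and 21.5). HoxB was led by Hoxb3, at 13.8 to 16.1 CPM per kilobase. Hoxa13 ranked 22nd, at 2.22 ± 0.842 CPM per kilobase in cyclopamine and 4.59 ± 0.233 in control (SD, n = 2 each), and Hoxc9, Hoxc13, Hoxc10 and Hoxb1 came last. The ranges over libraries overlapped for 23 of the 26 pairs of neighbours in this order; they did not for Hoxc8 over Hoxa6, Hoxa7 over Hoxc9 and Hoxc13 over Hoxc10. Hoxd13, the HoxD paralog of Hoxa13, had 21.1 ± 6.50 CPM per kilobase in cyclopamine and 44.7 ± 3.48 in control (SD, n = 2 each).

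**Figure D4:**
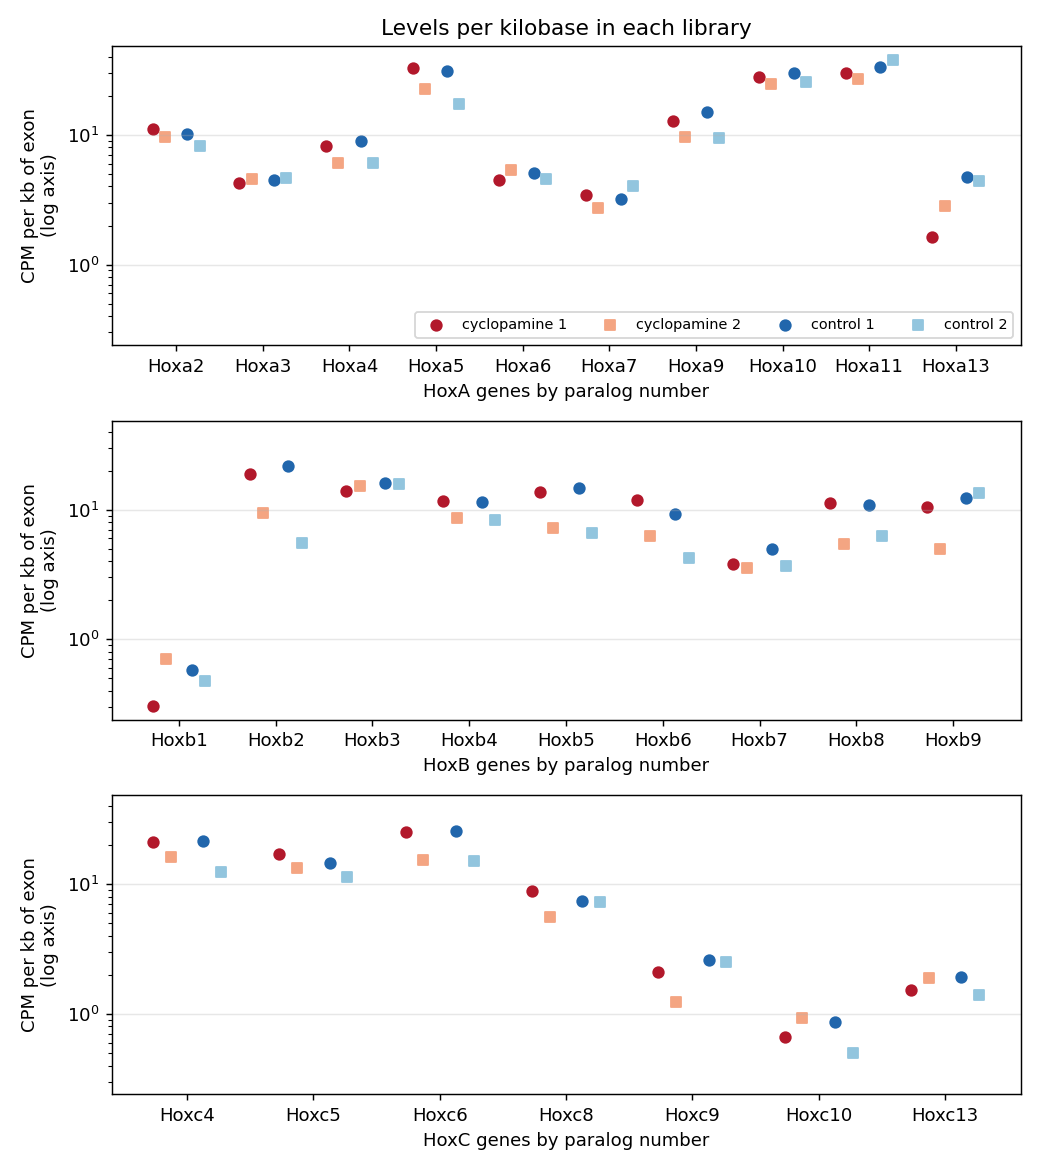
CPM per kilobase of exon for the members shown in each library, on a log axis; each point is a library. Hoxa10, Hoxa11 and Hoxa5 are at the top of HoxA, Hoxc4 to Hoxc6 at the top of HoxC, and Hoxb1 and Hoxc10 lie under 1 CPM per kilobase.

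Genes that act with or on the Hox clusters did not pass the threshold in limma, edgeR or DESeq2. Of the 9 TALE cofactors, homeodomain proteins that bind DNA together with Hox proteins, 0 rose and 0 fell (0.28% of all genes passed), and limma gave 0 of them an unadjusted p under 0.05 (5.82% of all genes), with a median log2 fold change of -0.02 beside 0.0045 over all genes tested. Meis1, a proximal limb gene, had 152 and 137 CPM in cyclopamine against 128 and 110 CPM in control, a log2 fold change of 0.29 (SE 0.15). Of the 21 Polycomb and Trithorax genes, which keep Hox clusters silent or active, 0 rose and 0 fell, and again 0 had an unadjusted p under 0.05, with a median of -0.03. Among 9 tested axial and signalling inputs the count was also 0, with 3 at an unadjusted p under 0.05 and a median of -0.05. Cyp26b1, which breaks down retinoic acid in the distal limb, had 118 and 181 CPM in cyclopamine against 174 and 269 CPM in control (-0.57, SE 0.21), and Cyp26a1, an enzyme of the same family, lay the other way at 2.13 and 2.19 CPM in cyclopamine against 0.31 and 1.54 CPM in control (1.05, SE 0.49), on 27 and 27 reads against 3 and 21. Zbtb16, a zinc finger partner of the Hox proteins of group 5, had 47.3 and 40.7 CPM in cyclopamine against 59.4 and 55.0 CPM in control (-0.38, SE 0.16).

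In mm10 the members lie on chromosome 6 (HoxA, with Hoxa13 at 52257694 to 52260880), chromosome 11 (HoxB, with Hoxb9 at 96271457 to 96276595) and chromosome 15 (HoxC, with Hoxc9 at 102976439 to 102985099). Exons of 12 of the 27 overlap exons of another annotated gene, on the opposite strand for 8 and on the same strand for 5, and the values of those genes are uncertain to that extent.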

How the data were processed

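RNA was sequenced on SOLiD from 4 libraries, 2 per group. Per the submitters' processing notes, which give no roles, the genome build was mm10 and the tools were HTSeq 0.5.4p5, TopHat2 2.0.9, SAMtools, edgeR 3.4.2 and Bowtie; annotation, strand and multi-mapping are not stated. The deposited normalized signal is gene counts scaled by the authors to CPM of an effective library size. All values were whole reads within 0.01 of a read (100% in each library), so reads were recovered. The authors' deposited table of the comparison holds log2 fold changes, p-values and false discovery rates, its test not stated.

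Genes averaging at least 1 CPM were fitted with limma 3.58.1 (R 4.3.3), without covariates and with an intensity trend, after the transform log2(CPM + 0.5); p-values were two-sided and Benjamini-Hochberg adjusted over 13568 genes, with a threshold of 0.05. Exact permutation of 2 against 2 libraries cannot go below 0.333. In simulated counts for this comparison (13575 genes), 64.3% of genes changed by 1 and 92.7% of those changed by 2 on the log2 scale were recovered. These were 98 and 96 changed genes, beside 38 genes called in the data, and there were 3 false calls. The simulated libraries varied independently of each other, so recovery in the data may differ. Floors cover counting error only.

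The members and gene lists were chosen with earlier results of these data known. Full statistics were kept for the 6 members with the smallest p and their HoxD paralogs; 1 of the 27 stays in the fits and counts but is not reported here; genes of other lists were named if past the threshold or among the 4 of smallest p in their list, and further ones for their level, after their values were seen. Alternatives were edgeR 4.0.16 and DESeq2 1.42.0 on recovered reads, pseudocounts, filters, scaling, a replicate block and leaving out each library.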

Additional observations from a re-analysis of the deposited data

How the results depend on the processing

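None of the 27 members passed under either other pseudocount, no filter on low values, a mean of at least 5 CPM, no intensity trend, median-of-ratios scaling, edgeR or DESeq2. Leaving out a library called between 0 and 1 member, and between 43 and 122 genes in all. Over all genes the count of 38 was 2 without a filter and 0 when the intensity trend was dropped (837 then had p under 0.05 before adjustment); with 2 libraries a group, both counts rest on the shared spread. The replicate number carries no stated litter, day or batch. Used as a replicate block, it called 351 genes and 2 members, Hoxa13 (limma, adjusted p = 0.0025) and Hoxb9 (0.00019), with unchanged fold changes. Deviations of same-numbered libraries from their group means had r = 0.27 across 13568 genes, with 2 pairs. With a mean of at least 5 CPM, under which 4 members drop out, the median of groups 9 to 13 was -0.46. Hoxb5 was -0.0018 with median-of-ratios scaling, -0.032 in edgeR and -0.043 in DESeq2; the cause was not tested.

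Leaving out each library in turn, the median ran from -0.19 to 0.11 for HoxA, -0.39 to 0.27 for HoxB, -0.16 to 0.38 for HoxC, -0.19 to 0.27 for groups 1 to 4, -0.29 to 0.39 for groups 5 to 8 and -0.35 to -0.17 for groups 9 to 13. The log2 fold changes that changed sign ran from -0.084 to 0.0086 for Hoxa3, -0.33 to 0.22 for Hoxa4, -0.21 to 0.64 for Hoxa5, -0.079 to 0.15 for Hoxa6, -0.44 to 0.24 for Hoxa9, -0.19 to 0.045 for Hoxa10, -0.51 to 0.30 for Hoxb1, -0.69 to 1.24 for Hoxb2, -0.19 to 0.27 for Hoxb4, -0.57 to 0.57 for Hoxb5, -0.11 to 0.97 for Hoxb6, -0.39 to 0.012 for Hoxb7, -0.58 to 0.44 for Hoxb8, -0.21 to 0.57 for Hoxc4, -0.36 to 0.38 for Hoxc6, -0.39 to 0.26 for Hoxc8, -0.10 to 0.46 for Hoxc10 and -0.16 to 0.24 for Hoxc13. Calls appeared for Hoxb2 without control 1, Hoxb9 without cyclopamine 1 and Hoxa13 without cyclopamine 2.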
